A study of Mus musculus with 16 samples.

Results

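The genes of the integrated stress response (ISR) and the unfolded protein response (UPR) were followed in cultured mouse macrophages derived from bone marrow (BMDMs). The members are the 43 listed mouse genes of ATF4 signalling, amino acid synthesis and transport, and endoplasmic reticulum (ER) protein folding, found by symbol among the 55487 genes of the count table. All 43 were found, and 39 of them passed the filter on low counts (CPM, counts scaled for library depth, above 1 in at least 2 samples) and were tested. Stc2, Vldlr, Pycr1 and Cth did not pass it, with at most 31 counts in any sample.

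The 16 samples came from wild-type Balb/c mice of 8 weeks and fell into 6 groups. BMDMs were kept in DMEM alone (n = 2), in DMEM with ruxolitinib (DMEM + Rux, n = 3), in conditioned medium of 4T1 mouse mammary tumor cells (CM, n = 3), in CM with ruxolitinib and a label of 4 h (CM + Rux 4 h, n = 3), in the same with a label of 2 h (CM + Rux 2 h, n = 2), or in CM with ruxolitinib and IKK-16 (CM + Rux + IKK-16, n = 3). Ruxolitinib, used with CM at 0.5 μM, blocks JAK1 and JAK2 kinase activity, and IKK-16, used at 0.8 μM, blocks the IKK kinases upstream of NF-κB. Per the study's methods all BMDMs were serum starved first, ruxolitinib was added during that pre-treatment, and RNA was taken after 4 h of CM. The meaning of the 2 h label is not stated, nor are the dose and time of ruxolitinib in DMEM. The methods name RPMI as the growth medium of 4T1 cells and do not name the medium in which CM was made, so the base medium and the factors released by the tumor cells cannot be told apart where CM is compared with DMEM. Nothing in the labels says whether samples of a group came from separate mice or cultures, so the p-values measure the spread between these samples only.

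As background, the ISR starts with kinases that phosphorylate the translation factor eIF2α, among them PERK (Eif2ak3), which senses unfolded protein in the ER, and GCN2 (Eif2ak4), which senses uncharged tRNA. General translation then falls while the mRNA of the transcription factor ATF4 is translated more, and ATF4 with its partners switches on genes of amino acid synthesis and uptake, CHOP (Ddit3) and the phosphatase subunit GADD34 (Ppp1r15a), which resets eIF2α. The other UPR sensors are IRE1α (Ern1), which splices Xbp1 mRNA, and ATF6, which is cleaved to become a transcription factor, and both raise ER chaperones such as BiP (Hspa5). Macrophages that secrete cytokines load their ER, and these pathways are known to tune that output. Gene counts do not show phosphorylation, translation, splicing or cleavage, so the values here are RNA levels of the genes only.

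Deposited counts summed to between 18449388 and 46215853 fragments per sample. Macrophage markers (8 genes, among them Csf1r, Cd68 and Lyz2) summed to 33950 to 45130 CPM in every sample. Epithelial markers (5 genes) summed to at most 1.445 CPM, with Epcam at or below 0.117 CPM. Of the plasma cell list, which stands for cells with a large ER, 1 gene of 3 carried the signal. Its sum was 21.4 to 29.9 CPM in both DMEM groups and 194 to 688 CPM in the CM groups, almost all from Sdc1, while Jchain stayed at or below 0.0461 CPM and Tnfrsf17 at or below 0.226 CPM. The summed dendritic cell list (4 genes) was 0.877 to 2.16 CPM in the DMEM groups and 3.32 to 16.8 CPM with CM. Flt3 was at most 0.167 CPM and Xcr1 at most 0.148 CPM in any sample, while Zbtb46 reached 12.3 CPM and Ccr7 8.81 CPM. In bulk RNA, fewer cells of a type and less RNA per cell cannot be told apart.

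Some promoters of the members, which were listed as genes of these pathways, hold textbook elements of them. RefSeq windows of GRCm38.p6, from 250 bases before to 50 after an annotated start, were at hand for 39 of the 43 members (47 windows), not for Atf6, Cth, Slc7a5 and Slc1a5. Both strands were searched for the C/EBP-ATF response element core TGATGNAA, the ER stress response element (CCAAT, then 9 bases, then CCACG), the UPR element TGACGTGG and the cAMP response element TGACGTCA, and no listed match overlapped another. TGATGNAA was in 8 of the 47 member windows, of 8 members (Asns, Chac1, Herpud1, Nupr1, Pycr1, Slc1a4, Trib3 and Vldlr), and in 3.97% of all 32851 windows. The ER stress response element was in 3 of the 47 member windows, of the chaperone genes Calr, Hsp90b1 and Hspa5, and in 0.119% of all windows. TGACGTCA was in the window of Ppp1r15a (1.79% of all windows), and TGACGTGG was in none of the members' windows (0.676% of all). The 6 windows below are those with either of the first 2 elements and the largest change of the gene between CM and DMEM, each read 5′ to 3′ on the gene's strand, with the element in capitals. They are chr2:34771840-34772139 (plus strand) for Hspa5, chr10:86705395-86705694 (minus) for Hsp90b1, chr11:20332664-20332963 (minus) for Slc1a4, chr6:7693160-7693459 (minus) for Asns, chr7:126625421-126625720 (minus) for Nupr1 and chr2:152344011-152344310 (minus) for Trib3.
Hspa5: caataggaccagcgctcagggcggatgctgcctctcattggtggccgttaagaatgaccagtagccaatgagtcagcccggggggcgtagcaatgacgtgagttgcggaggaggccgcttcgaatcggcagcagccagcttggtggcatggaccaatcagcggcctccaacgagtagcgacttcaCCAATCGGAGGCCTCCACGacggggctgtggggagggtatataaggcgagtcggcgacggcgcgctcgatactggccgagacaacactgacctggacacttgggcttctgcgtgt
Hsp90b1: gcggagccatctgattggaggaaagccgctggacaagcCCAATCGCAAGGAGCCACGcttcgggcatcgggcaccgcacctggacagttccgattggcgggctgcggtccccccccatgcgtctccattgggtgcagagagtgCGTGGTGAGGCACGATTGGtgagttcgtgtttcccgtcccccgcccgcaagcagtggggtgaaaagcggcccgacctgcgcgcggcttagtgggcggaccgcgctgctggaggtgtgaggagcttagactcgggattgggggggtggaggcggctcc
Slc1a4: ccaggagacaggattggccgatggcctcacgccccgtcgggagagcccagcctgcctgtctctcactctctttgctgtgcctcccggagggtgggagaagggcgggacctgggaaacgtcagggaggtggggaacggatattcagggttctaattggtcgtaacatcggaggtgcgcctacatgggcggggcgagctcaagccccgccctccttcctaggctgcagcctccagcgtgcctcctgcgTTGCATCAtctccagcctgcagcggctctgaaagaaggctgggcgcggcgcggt
Asns: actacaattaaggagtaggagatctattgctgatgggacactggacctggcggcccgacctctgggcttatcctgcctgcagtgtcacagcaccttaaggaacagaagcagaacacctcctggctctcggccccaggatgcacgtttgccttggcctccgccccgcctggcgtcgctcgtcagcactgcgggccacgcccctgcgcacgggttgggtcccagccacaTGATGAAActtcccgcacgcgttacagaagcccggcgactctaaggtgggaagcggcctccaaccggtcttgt
Nupr1: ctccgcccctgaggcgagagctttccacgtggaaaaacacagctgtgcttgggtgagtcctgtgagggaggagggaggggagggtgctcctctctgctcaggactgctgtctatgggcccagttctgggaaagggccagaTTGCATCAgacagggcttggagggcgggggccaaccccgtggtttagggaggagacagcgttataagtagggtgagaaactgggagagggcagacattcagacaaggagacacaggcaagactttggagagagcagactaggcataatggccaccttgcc
Trib3: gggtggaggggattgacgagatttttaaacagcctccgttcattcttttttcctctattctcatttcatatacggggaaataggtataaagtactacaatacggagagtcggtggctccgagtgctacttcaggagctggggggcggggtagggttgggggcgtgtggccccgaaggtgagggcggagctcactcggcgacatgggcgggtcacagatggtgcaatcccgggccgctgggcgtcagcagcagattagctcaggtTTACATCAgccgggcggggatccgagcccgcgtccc
The element starts at base -65 from the annotated start in Hspa5, at -212 and -107 in Hsp90b1, at -4 in Slc1a4, at -23 in Asns, at -110 in Nupr1 and at 15 in Trib3. A match of letters is a description of the window and not a sign that a factor was bound.

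Levels of the members differed widely, on the scale of CPM per kilobase of exon averaged over the 6 groups. ER chaperone genes led, with Calr (calreticulin) at 546.6, Hspa5 at 416.5 and Hsp90b1 (GRP94) at 206.8, followed by the transporter subunit Slc3a2 at 117 and Atf4 at 99.0. The mean of Calr was above that of Hspa5 in all 6 groups, though samples of the pair overlapped on this scale in CM. In DMEM, Calr had 465 ± 52.8 CPM per kilobase (SD, n = 2) and Hspa5 276 ± 30.7 (SD, n = 2), while in CM they had 639 ± 38.13 and 539 ± 73.8 (SD, n = 3). Xbp1 stood at 62.0, Ern1 at 22.9 and Ddit3 at 16.1 CPM per kilobase over the groups. Among the members left out for low counts, Stc2, a glycoprotein gene of the ATF4 programme, had no counts in DMEM, 0 to 1 count in DMEM + Rux and 0 to 9 counts in the CM groups.

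The first comparison asks how the members differ between BMDMs in tumor CM and in DMEM, whose base media may differ too. CM raised the chaperone genes Hspa5, Pdia4 and Hsp90b1 and the feedback genes Ddit4 and Ppp1r15a, and lowered transporter and synthesis genes of amino acids such as Slc1a4, Slc7a5 and Gpt2. Of the 39 members tested, 9 were called higher and 7 lower (adjusted p under 0.05 and log2 fold change beyond 0.5, quasi-likelihood test of edgeR with Benjamini-Hochberg adjustment over all genes tested). Over all 12372 genes, 20.9% were called higher and 24.1% lower, so the share of members called in either direction was close to that of all genes. The median log2 fold change was 0.04 over the members and -0.01 over all genes tested. These counts depend on the scaling. The relative log expression scaling (RLE) used here put the median log2 fold change 0.31 above that from plain library totals, and with total counts alone 5 members were called higher and 14 lower. Atf4, Xbp1, Slc3a2 and Hsp90b1 then missed the call, with log2 fold changes of 0.22 to 0.32. Ddit3, Eif2ak3 and Herpud1 were then called lower, at -0.59, -0.62 and -0.57, as were Slc6a9, Asns, Psat1 and Aldh18a1.

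**Figure D1:**
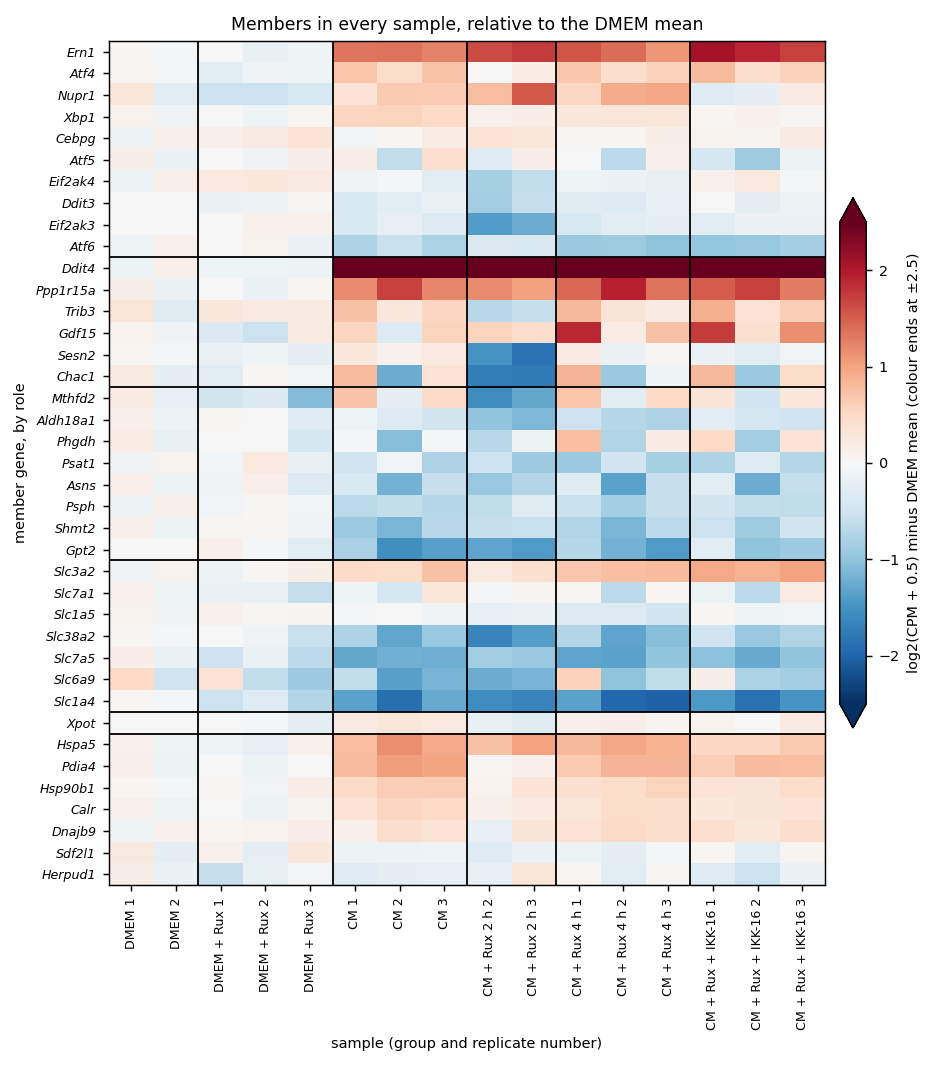
Heat map of the 39 tested members (rows, ordered by role) in the 16 samples (columns, with group and replicate number). Colour is log2(CPM + 0.5) minus the mean of the DMEM samples, and ends at ±2.5, so Ddit4, at a log2 fold change of 5.22 in CM against DMEM, lies beyond the scale in every CM group.

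Among the sensors and transcription factors, 3 of 10 were called higher and 1 lower, against 20.9% and 24.1% of all genes tested. Ern1 RNA, which encodes the IRE1α sensor, was at 81.6 and 78.8 CPM in DMEM and at 205, 206 and 189 CPM in CM. No CM sample came near the DMEM level, and the log2 fold change was 1.32 (standard error, SE, 0.13, adjusted p = 1.767e-06). Xbp1, the target of IRE1α splicing, was at 187 and 168 CPM in DMEM and at 259, 263 and 249.9 CPM in CM (log2 fold change 0.53, SE 0.07, adjusted p = 1.391e-05). The groups did not overlap, though without DMEM replicate 2 the change was 0.46 and below the fold threshold. Atf6, the third UPR sensor, moved the other way, from 167 and 194 CPM in DMEM to 106, 123 and 104 CPM in CM. Its log2 fold change was -0.71 (SE 0.09, adjusted p = 1.485e-05). Atf4 was at 192 and 180.1 CPM in DMEM and at 303, 256 and 305 CPM in CM, a log2 fold change of 0.63 (SE 0.11, adjusted p = 0.0002905).

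Ddit3, which encodes CHOP and follows ATF4 in strong ER stress, was not called. It had 32.5 and 32.0 CPM in DMEM and 24.5, 26.4 and 28.9 CPM in CM, with all CM samples below both DMEM samples and a log2 fold change of -0.28 (SE 0.10, adjusted p = 0.03014) under the fold threshold. A second Ensembl identifier with the symbol Ddit3 had 0 counts in all samples and overlaps 6.13% of the exon bases of the one used, where the authors' counting leaves fragments out. The kinase genes Eif2ak3 and Eif2ak4 had log2 fold changes of -0.31 and -0.13, and the ATF4 partners Atf5 and Cebpg had 0.04 and 0.05. None of these 4 was called.

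Of the 6 feedback and stress effectors tested, 2 were called higher in CM and none lower, against 20.9% and 24.1% of all genes tested. Ddit4 (REDD1, an inhibitor of mTORC1) changed more than any other tested member. The gene (ENSMUSG00000020108) lies on chromosome 10 from 59949669 to 59951834 of GRCm38. It had 1.54 and 1.92 CPM in DMEM and 51.7, 87.3 and 52.5 CPM in CM. This was a 37.3-fold difference, with a log2 fold change of 5.22 (SE 0.42, adjusted p = 1.948e-07). Ppp1r15a, the gene of GADD34, went from 32.3 and 26.3 CPM to 67.3, 97.0 and 68.9 CPM (log2 fold change 1.41, SE 0.20, adjusted p = 4.046e-05). In both genes CM replicate 2 was the highest sample. The ATF4 targets Trib3, Chac1, Sesn2 and Gdf15 had log2 fold changes of 0.51, 0.13, 0.21 and 0.34 with SE of 0.24, 0.76, 0.12 and 0.59, and were not called.

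ER chaperones and quality control genes were called higher in 3 of 7 cases and lower in none, against 20.9% and 24.1% of all genes tested. Hspa5 (BiP), the main chaperone of the ER lumen, had 1260 and 1077 CPM in DMEM and 1992, 2611 and 2233 CPM in CM. The difference was 1.95-fold and the groups did not overlap (log2 fold change 0.96, SE 0.14, adjusted p = 3.725e-05). Pdia4, a disulfide isomerase, had a log2 fold change of 0.94 (SE 0.10) and Hsp90b1 one of 0.57 (SE 0.10). Calr, the third member with an ER stress response element in its window, had 0.46 (SE 0.10, adjusted p = 0.0009435), just under the fold threshold. Dnajb9, a BiP cochaperone, had 0.31, while Sdf2l1 had -0.14 and Herpud1, a part of ER-associated degradation, had -0.26, all not called. Sdc1 of the plasma cell list moved in the same direction as the chaperones (above), and its part in this result was not tested.

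Of the 7 amino acid transport genes, 3 were called lower, 1 was called higher and 3 were not called. Of the 8 synthesis genes tested, 3 were called lower and 5 were not called, beside the 24.1% of all genes called lower. Slc1a4 (ASCT1, a carrier of small neutral amino acids), whose window holds TGATGNAA close to the start, had 2.81 and 2.70 CPM in DMEM and 0.778, 0.386 and 0.855 CPM in CM. It was 4.22-fold lower (log2 fold change -2.08, SE 0.37, adjusted p = 0.0002643). Slc7a5 (LAT1), the light chain of the large neutral amino acid exchanger, went from 14.5 and 11.5 CPM to 5.06, 5.37 and 5.25 CPM (log2 fold change -1.32, SE 0.17, adjusted p = 1.408e-05). Its heavy chain Slc3a2 (CD98), shared with other light chains, went up instead, with a log2 fold change of 0.56 (SE 0.11, adjusted p = 0.0004409), which fell under the fold threshold without CM replicate 3 or without DMEM replicate 1 (0.46 and 0.47). Slc38a2 (SNAT2) was lower by a log2 fold change of -0.99 (SE 0.20).

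Gpt2, a mitochondrial alanine transaminase, had 16.57 and 16.64 CPM in DMEM and 9.23, 5.37 and 6.19 CPM in CM, with no overlap (log2 fold change -1.28, SE 0.26, adjusted p = 0.0006959). Shmt2, the mitochondrial enzyme that draws one-carbon units from serine, and Psph, the last enzyme of serine synthesis, had log2 fold changes of -0.93 (SE 0.16) and -0.71 (SE 0.14). Asns, the asparagine synthetase gene and a standard readout of ATF4, had -0.71 with an SE of 0.31 and was not called (adjusted p = 0.06316). It was called lower by DESeq2 (-0.70, adjusted p = 0.04366), with total counts alone (-1.01, adjusted p = 0.01747) and with the replicate number as a block (-0.73, adjusted p = 0.01534). The first enzymes of serine synthesis, Phgdh and Psat1, had -0.37 (SE 0.46) and -0.43 (SE 0.22). Mthfd2, the folate enzyme next to Shmt2, had 0.36 (SE 0.34). None of these 3 was called.

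**Figure D2:**
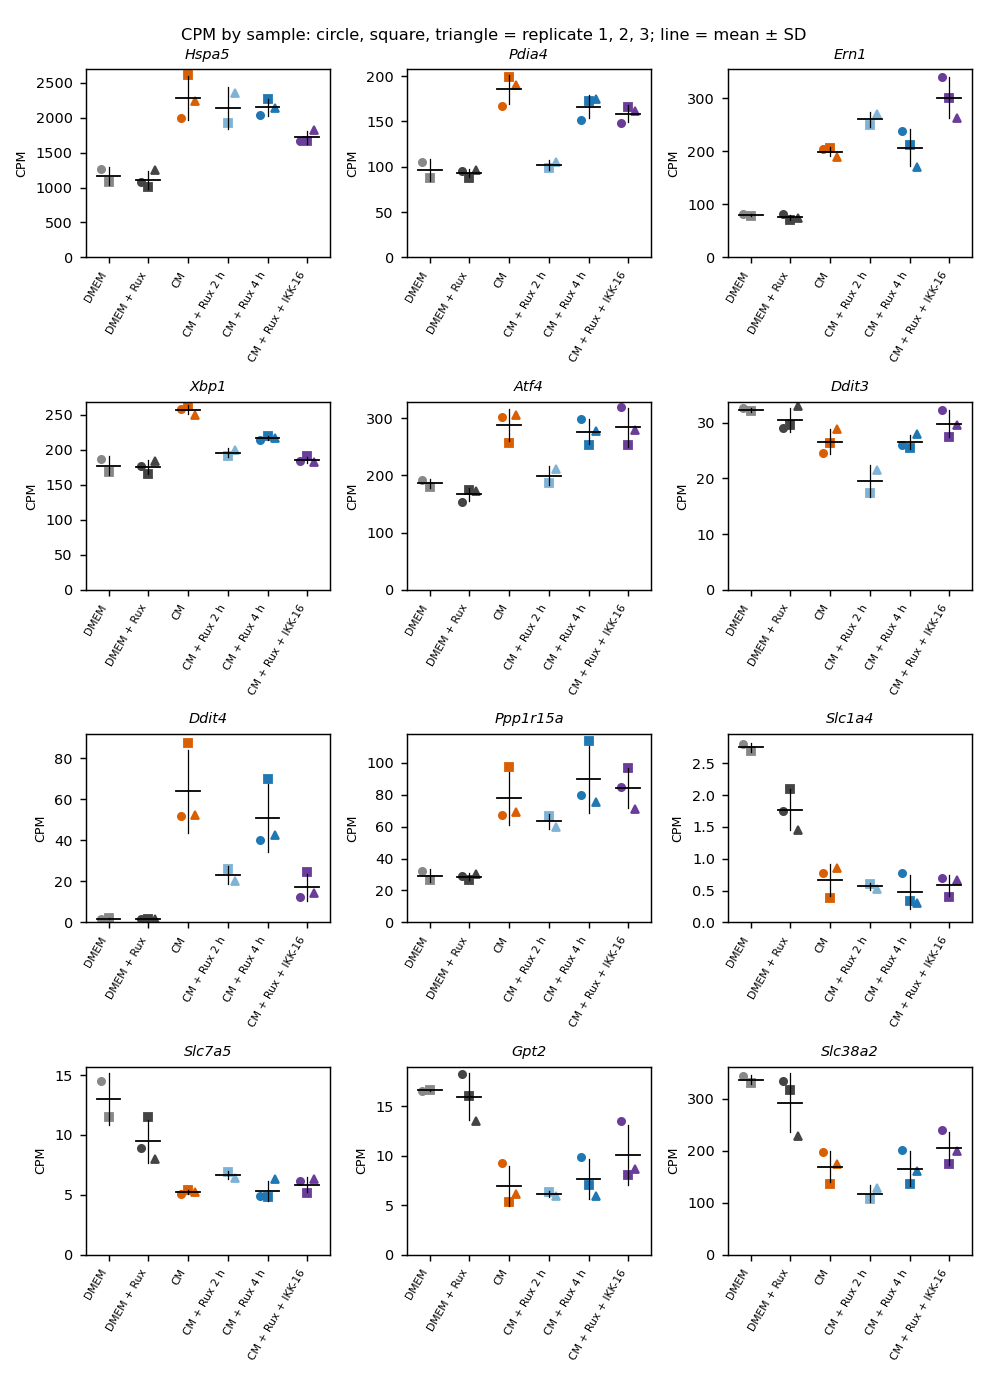
CPM of 12 members in every sample, by group. Symbols mark replicates 1, 2 and 3, and lines give the mean ± SD. Ddit4, Ern1, Hspa5 and Ppp1r15a lie higher in all CM groups than in both DMEM groups, Slc1a4, Slc7a5, Gpt2 and Slc38a2 lie lower except for CM + Rux + IKK-16 replicate 1 of Gpt2 and Slc38a2, and Pdia4 at 2 h stays near the DMEM level.

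A pair of further lists of the same pathways, chosen with earlier results of these data known, was followed. As background for both lists, 20.9% of all genes tested were called higher with CM and 24.1% lower. Of 20 cytosolic aminoacyl-tRNA synthetase genes, which charge tRNAs and are largely ATF4 targets, none was higher and 1 was lower in CM than in DMEM. This was Vars, the valine enzyme, at a log2 fold change of -0.68 (SE 0.13, adjusted p = 0.000377). Of 35 other stress response and ER genes tested, 16 were higher (45.7%) and 3 lower (8.57%). Their largest rises were in Slc7a11, the cystine importer gene, whose mean was 51.7 CPM in DMEM (SD 34.97, n = 2) and 865 CPM in CM (SD 135, n = 3), with a log2 fold change of 4.06 (SE 0.43), and Jdp2, a bZIP repressor gene, with 3.87 (SE 0.35). The largest falls were in Derl3, an ER degradation factor gene, at -0.89 (SE 0.34), and Atf3, a stress-induced bZIP factor gene, at -0.87 (SE 0.20). Derl3 lay near the filter of 1 CPM, with a mean of 1.17 CPM in DMEM (SD 0.365, n = 2) and 0.616 CPM in CM (SD 0.0637, n = 3). Atf3 had a mean of 278 CPM in DMEM (SD 13.8, n = 2) and 152 CPM in CM (SD 19.6, n = 3).

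The response to CM was also measured with JAK1/2 inhibited on both sides, between CM + Rux 4 h and DMEM + Rux, which share no sample with the comparison above. The comparisons are still not independent, as same-numbered samples moved together (below) and 1 model was fitted to all 16 samples. Of 39 members 10 were called higher and 9 lower, against 22.3% and 25.0% of all genes tested, and total counts alone, with a median 0.30 lower, gave 7 and 15. Of the members called higher, 7 were called higher in both comparisons (Atf4, Ddit4, Ern1, Hspa5, Pdia4, Ppp1r15a and Slc3a2), which is 77.8% of the first set and 70.0% of the second. All 7 members lower in CM than in DMEM were also lower here, which is 77.8% of the 9. Over all genes tested, 86.4% of those higher and 87.2% of those lower in the first comparison had the same call in the second, and 80.9% and 83.9% of the second in the first. Hsp90b1 and Xbp1 were called in the first comparison but not here, and Gdf15, Mthfd2, Nupr1, Psat1 and Aldh18a1 here but not in the first. The difference between the comparisons was tested as the ruxolitinib effect in CM minus that in DMEM (below), and no member was called. With total counts alone, Atf4 and Slc3a2 missed the call here too, at log2 fold changes of 0.43 and 0.42. Ddit3, Eif2ak3, Eif2ak4, Slc1a5, Sdf2l1 and Asns were then called lower, at -0.51, -0.69, -0.70, -0.75, -0.5015 and -0.89. Ddit4 had 1.57, 1.56 and 1.52 CPM in DMEM + Rux and 40.0, 69.7 and 42.5 CPM in CM + Rux 4 h (log2 fold change 5.03, SE 0.35, adjusted p = 2.81e-08). Ppp1r15a went from 29.1, 26.3 and 30.4 CPM to 80.1, 113 and 75.3 CPM (log2 fold change 1.65, SE 0.18). Gdf15, a secreted stress cytokine gene, went from 1.20, 1.004 and 2.04 CPM to 7.57, 1.96 and 3.10 CPM (log2 fold change 1.59, SE 0.51, adjusted p = 0.01276). The groups of Gdf15 overlapped. Without CM + Rux 4 h replicate 1 its log2 fold change was 0.81 (adjusted p = 0.1403), and without DMEM + Rux replicate 2 it was 1.36 (adjusted p = 0.05948).

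The largest falls with ruxolitinib on both sides were in Slc1a4, Gpt2 and Atf6. Slc1a4 went from 1.75, 2.097 and 1.46 CPM to 0.782, 0.339 and 0.305 CPM (log2 fold change -1.85, SE 0.35). Gpt2 went from 18.3, 16.02 and 13.5 CPM to 9.89, 7.04 and 5.95 CPM (log2 fold change -1.05, SE 0.23). Atf6 went from 182, 193 and 164 CPM to 94.6, 97.8 and 90.0 CPM (log2 fold change -0.93, SE 0.08, adjusted p = 3.165e-07). No sample of one group reached the other in these 3 genes. Hspa5 had 1077, 1006 and 1258 CPM in DMEM + Rux and 2032, 2272 and 2141 CPM in CM + Rux 4 h (log2 fold change 0.95, SE 0.12), and Atf4 had 154, 174 and 173 CPM against 299, 254 and 277 CPM (0.73, SE 0.10). Xbp1 had 177, 166 and 184 CPM against 215, 219 and 217 CPM (0.30, SE 0.06), and Ddit3 had 29.1, 29.5 and 32.9 CPM against 26.0, 25.5 and 27.9 CPM (-0.21, SE 0.09), and neither was called. Nupr1 and Mthfd2 were called higher with log2 fold changes of 1.34 (SE 0.21) and 0.98 (SE 0.30). The call of Mthfd2 was lost without CM + Rux 4 h replicate 1 (adjusted p = 0.05705) or without DMEM + Rux replicate 3 (adjusted p = 0.05536), and with total counts alone (adjusted p = 0.07437). Psat1 and Aldh18a1, genes of serine and proline synthesis, were called lower at -0.78 (SE 0.20) and -0.61 (SE 0.14). With the replicate number as a block, Asns was lower too (log2 fold change -0.69, adjusted p = 0.009414).

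**Figure D3:**
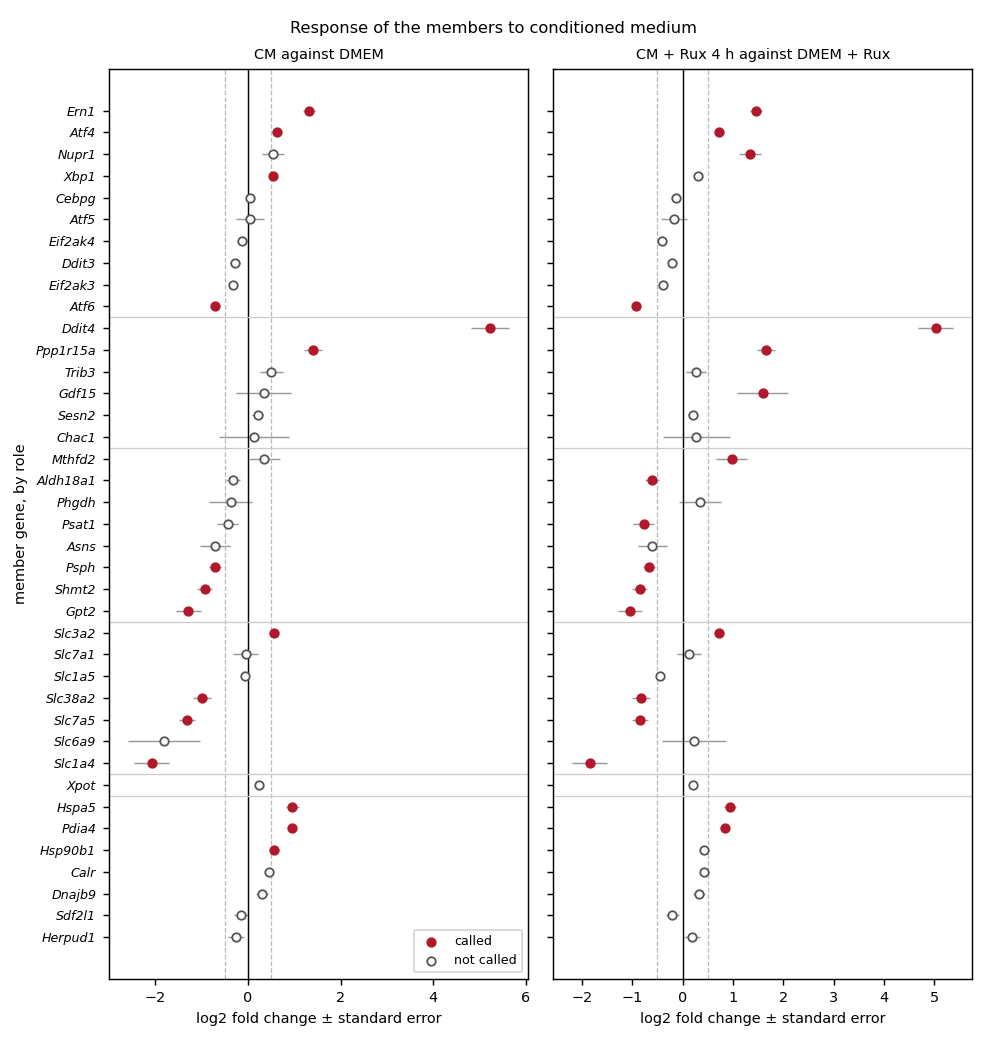
Log2 fold change ± SE of the 39 tested members, by role, for CM against DMEM (left) and CM + Rux 4 h against DMEM + Rux (right). Filled points are called (9 higher and 7 lower on the left, 10 and 9 on the right), open points are not, and dashed lines mark the fold threshold of 0.5 in either direction.

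The next comparisons ask what JAK1/2 inhibition does to these genes. Ruxolitinib changed no member past both thresholds, with or without CM. In CM + Rux 4 h against CM, 0 of 39 members were called by edgeR or DESeq2, against 1.2% of all genes called higher and 2.13% lower. No member combined an unadjusted p under 0.05 with a log2 fold change beyond 0.5 in edgeR, and Gdf15 and Slc6a9 did in DESeq2. Log2 fold changes ran from -0.40 to 1.45, with SE from 0.06 to 0.73. Slc1a5 (ASCT2, a glutamine carrier) had the smallest adjusted p, with 41.7, 42.7 and 40.3 CPM in CM and 33.9, 34.0 and 30.8 CPM in CM + Rux 4 h (log2 fold change -0.34, SE 0.07, adjusted p = 0.01035). Xbp1 had 259, 263 and 249.9 CPM in CM and 215, 219 and 217 CPM in CM + Rux 4 h (-0.25, SE 0.06, adjusted p = 0.03252). The samples of both genes did not overlap, but the size was under the fold threshold. Slc6a9, a glycine transporter gene, had the largest change, from 0.834, 0.297 and 0.407 CPM in CM to 2.53, 0.508 and 0.814 CPM in CM + Rux 4 h (log2 fold change 1.45, SE 0.73, adjusted p = 0.3839). With the replicate number as a block it was called higher (log2 fold change 1.21, adjusted p = 0.01153), on 10 to 94 counts per sample.

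In DMEM + Rux against DMEM, 0 of 39 members were called by edgeR or DESeq2, against 0.0% of all genes called higher and 0.97% lower. Log2 fold changes ran from -0.63 (Mthfd2 and Slc1a4) to 0.25 (Eif2ak4), with SE from 0.07 to 0.75. Nupr1, a stress-induced chromatin protein gene, was the 1 member with an unadjusted p under 0.05 and a log2 fold change beyond 0.5 (-0.54, adjusted p = 0.91). The test of the difference between the ruxolitinib effects in CM and in DMEM also called 0 members in edgeR and in DESeq2, against 0.234% of all genes higher and 0.178% lower. Nupr1 was again the 1 member past the unadjusted thresholds in both (edgeR log2 fold change 0.80, SE 0.32, adjusted p = 0.4086). SE in the edgeR test ran from 0.09 to 1.01. With the replicate number as a block in edgeR, 0 members were called, and Herpud1, Nupr1 and Slc6a9 passed the unadjusted thresholds. Slc1a5 had the smallest adjusted p with the block (0.01792) and in DESeq2 (0.0308), with a change under the fold threshold.

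Adding IKK-16 to CM + Rux moved 3 of 39 members. It lowered Ddit4 and Nupr1 and raised Ern1. These calls are 2.56% of the members higher and 5.13% lower, near the 4.07% and 3.66% of all genes tested. Ddit4 had 40.0, 69.7 and 42.5 CPM in CM + Rux 4 h and 12.4, 24.5 and 14.2 CPM in CM + Rux + IKK-16. It was 2.98-fold lower with no overlap (log2 fold change -1.58, SE 0.28, adjusted p = 0.002258), and its level with IKK-16 stayed above every DMEM sample. Nupr1 went from 23.9, 31.6 and 32.5 CPM to 13.0, 14.1 and 19.4 CPM (log2 fold change -0.92, SE 0.21, adjusted p = 0.01017), within the range of 11.2 to 20.1 CPM of both DMEM groups. Without CM + Rux + IKK-16 replicate 1 the call of Nupr1 was lost (adjusted p = 0.05315). Ern1 went from 239, 213 and 170.1 CPM to 341, 301 and 262 CPM (log2 fold change 0.54, SE 0.11, adjusted p = 0.006805). This call rested on the fold threshold. The log2 fold change was 0.42 without CM + Rux 4 h replicate 3 and 0.44 without CM + Rux + IKK-16 replicate 1, and a fit of only the groups compared gave adjusted p = 0.05464.

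Other members changed less with IKK-16. Hspa5 had 2032, 2272 and 2141 CPM in CM + Rux 4 h and 1661, 1671 and 1829 CPM with IKK-16, and did not overlap, but was not called (log2 fold change -0.32, SE 0.12, adjusted p = 0.09066). Xbp1 had 215, 219 and 217 CPM against 184, 191 and 182 CPM (-0.23, SE 0.06, adjusted p = 0.02209), under the fold threshold. Atf4 had 299, 254 and 277 CPM against 320.3, 253 and 279 CPM (0.04, SE 0.10), and Ddit3 26.0, 25.5 and 27.9 CPM against 32.3, 27.5 and 29.5 CPM (0.17, SE 0.09). Slc1a5 had 44.0, 39.8 and 41.2 CPM with IKK-16 against 33.9, 34.0 and 30.8 CPM without it (0.34, SE 0.07, adjusted p = 0.005042), also under the fold threshold. The CM + Rux 4 h samples enter both this comparison and that with CM. Of the further lists, 1 of 20 synthetase genes (5.0%) was higher. Of the 35 other stress response and ER genes, 1 (2.86%) was lower, which was Jdp2 (-0.93, SE 0.26). Over all genes tested, 4.07% were higher and 3.66% lower. Ddit4 and the dendritic cell list were both lower with IKK-16 than in CM + Rux 4 h (3.32 to 4.77 against 7.12 to 10.7 CPM for the list), and the part of such cells in the result was not tested.

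In the CM + Rux samples labelled 2 h, 4 of the 6 feedback and stress effectors tested (Sesn2, Chac1, Trib3 and Ddit4) were lower than in those labelled 4 h, as were 1 of 8 synthesis genes (Mthfd2) and 0 of 7 transport genes. Of all 39 members, 8 were lower and 1 higher at 2 h, against 10.7% and 12.6% of all genes tested. The median log2 fold change was -0.33 over the members and -0.03 over all genes. Sesn2 (sestrin 2, a leucine sensor induced by ATF4) had 11.7 and 9.05 CPM at 2 h and 39.0, 30.2 and 34.4 CPM at 4 h (log2 fold change -1.72, SE 0.13, adjusted p = 5.752e-07). Mthfd2 had 9.02 and 11.2 CPM against 45.7, 22.9 and 39.6 CPM (log2 fold change -1.84, SE 0.37, adjusted p = 0.001583). Chac1, which encodes a glutathione-degrading enzyme and is a sensitive ATF4 target, had 0.193 and 0.175 CPM (7 and 3 counts) against 3.67, 0.702 and 1.63 CPM (log2 fold change -3.40, SE 1.09, adjusted p = 0.02434). The groups did not overlap in these 3 genes. The call of Chac1 was lost without either sample of 2 h or without CM + Rux 4 h replicate 1 (adjusted p from 0.09723 to 0.1472), and its log2 fold change was then -3.49 to -2.52. The dendritic cell list summed to 13.0 to 16.8 CPM at 2 h and 7.12 to 10.7 CPM at 4 h, and the plasma cell list, almost all Sdc1, to 194 to 272 CPM against 430.4 to 664 CPM. The part of such cells in the result was not tested.

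Eif2ak3 (PERK) was also lower at 2 h, by a log2 fold change of -1.04 (SE 0.08, adjusted p = 1.231e-06), and Trib3, Ddit4, Pdia4 and Eif2ak4 were lower by -1.25, -1.13, -0.71 and -0.59. The call of Ddit4 was lost without CM + Rux 2 h replicate 3 (adjusted p = 0.1021) and that of Eif2ak4 without CM + Rux 2 h replicate 2 (log2 fold change -0.48). Atf6 was the 1 member called higher, with 140.0 and 138 CPM at 2 h and 94.6, 97.8 and 90.0 CPM at 4 h (log2 fold change 0.56, SE 0.09, adjusted p = 0.0003504). It had 0.49 with scaling by total counts alone, under the fold threshold, where 0 members were higher and 11 lower. Hspa5 was at 1926 and 2354 CPM at 2 h and overlapped the 4 h samples (-0.01, SE 0.13). Atf4 was at 188 and 211 CPM at 2 h, below all 4 h samples (-0.47, SE 0.11, adjusted p = 0.005083). Ddit3 at 17.4 and 21.5 CPM (-0.45, SE 0.11, adjusted p = 0.004604) was also below them. Both were under the fold threshold, and beyond it with total counts alone (-0.54 and -0.52). Xbp1 at 191 and 200.4 CPM had -0.15 (SE 0.07).

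Set against DMEM + Rux, in a comparison added after the values were seen, the 2 h samples had 5 members higher and 13 lower, while 18.4% of all genes were higher and 21.7% lower (with total counts alone, whose median was 0.37 lower, 5 and 20 members). Higher were Ddit4 (26.1 and 20.0 CPM, log2 fold change 3.90, SE 0.36), Ern1 (249.8 and 271 CPM, 1.79, SE 0.13), Nupr1 (28.3 and 48.3 CPM, 1.71, SE 0.23), Ppp1r15a (1.15, SE 0.19) and Hspa5 (0.94, SE 0.13). Pdia4 had 0.13 (SE 0.10), Xbp1 had 0.16 (SE 0.07) and Atf4 had 0.25 (SE 0.11), and these 3 were not called. The 6 feedback and stress effectors tested split into 2 higher, 3 lower and 1 not called. Among the members below DMEM + Rux, Sesn2 was lower by a log2 fold change of -1.51 (SE 0.13, adjusted p = 2.67e-07), Eif2ak3 by -1.43 (SE 0.09, adjusted p = 1.151e-08), Slc1a4 by -1.62 (SE 0.41), Trib3 by -0.98 (SE 0.25) and Ddit3 by -0.66 (SE 0.11). The call of Trib3 was lost without CM + Rux 2 h replicate 2 (log2 fold change -0.91, adjusted p = 0.0522). Chac1 was lower by -3.13 (SE 1.10, adjusted p = 0.02586), a call lost without either 2 h sample or without DMEM + Rux replicate 2 (adjusted p from 0.05249 to 0.15). Slc1a4 had 0.607 and 0.525 CPM at 2 h. In the list of other stress genes Atf3 had 45.6 ± 7.35 CPM (SD, n = 2) at 2 h, 294 ± 23.0 CPM (SD, n = 3) in DMEM + Rux and 117 ± 24.5 CPM (SD, n = 3) in CM + Rux 4 h.

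**Figure D4:**
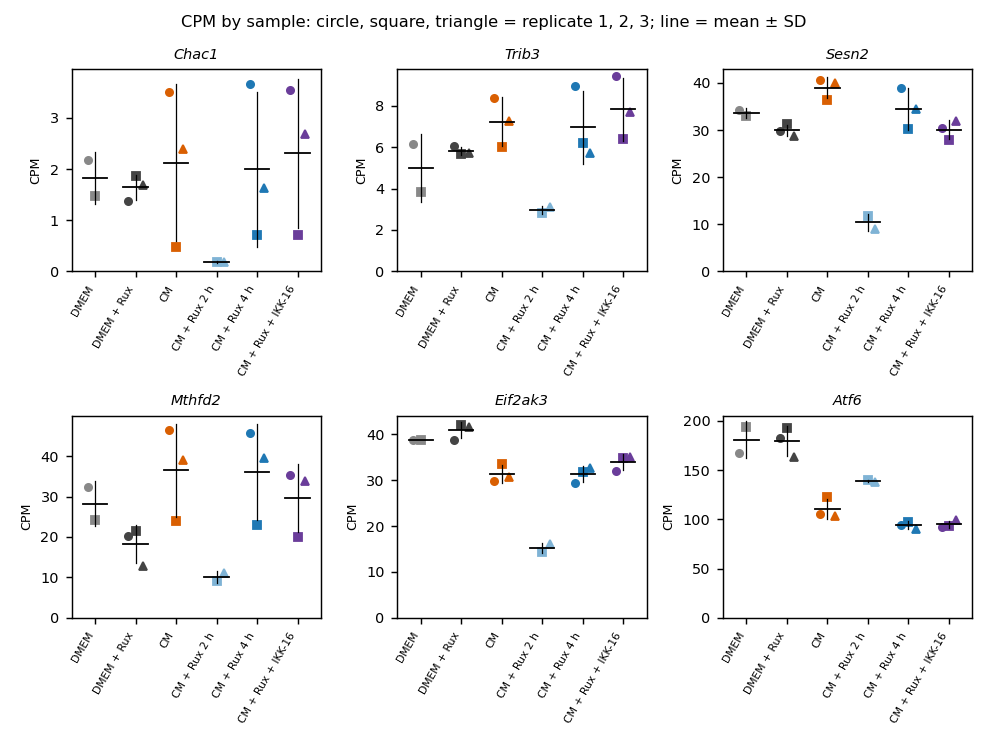
CPM of 6 members in every sample, by group. Symbols mark replicates 1, 2 and 3, and lines give the mean ± SD. Both CM + Rux 2 h samples lie below every other sample for Chac1, Trib3, Sesn2, Mthfd2 and Eif2ak3, while Atf6 at 2 h lies between DMEM and CM.

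Samples with the same replicate number moved together within the CM groups. Across the 39 tested members, the deviations of same-numbered samples from their group means correlated with r from 0.51 to 0.95 over the 9 pairs of CM, CM + Rux 4 h and CM + Rux + IKK-16 samples, and those of different numbers with r from -0.85 to 0.45 over 18 pairs. Deviations within a group sum to 0, which favours negative values between different numbers. Over all 12372 genes the ranges were 0.47 to 0.72 and -0.47 to -0.05. These values describe libraries that share a number, whose meaning the labels do not give. Replicate 2 was the lowest sample in all 3 groups for 12 of the 39 members, which is 30.8%, against 14.0% of all genes tested. The 12 include Asns, Phgdh, Mthfd2, Shmt2, Chac1, Gdf15, Atf5 and Atf4. Asns had 21.96, 12.4 and 19.0 CPM in CM, 23.3, 11.1 and 19.1 CPM in CM + Rux 4 h and 23.5, 11.8 and 18.8 CPM in CM + Rux + IKK-16. Phgdh had 10.8, 5.05 and 10.7 CPM, 19.2, 6.41 and 13.0 CPM, and 15.96, 5.87 and 14.3 CPM in the same order. Ddit4, Ppp1r15a, Psat1 and Xbp1 were instead highest in replicate 2 in all 3 groups, which is 10.3% of members against 21.7% of all genes tested. Replicate 1 was the highest in all 3 groups for 9 members, which is 23.1%, against 9.97% of all genes tested. The 9 include Chac1, Mthfd2, Trib3 and Slc6a9. Neither replicate 1 of CM + Rux 2 h nor replicate 3 of DMEM is among the samples, so comparisons with those groups set unequal sets of numbers against each other.

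**Figure D5:**
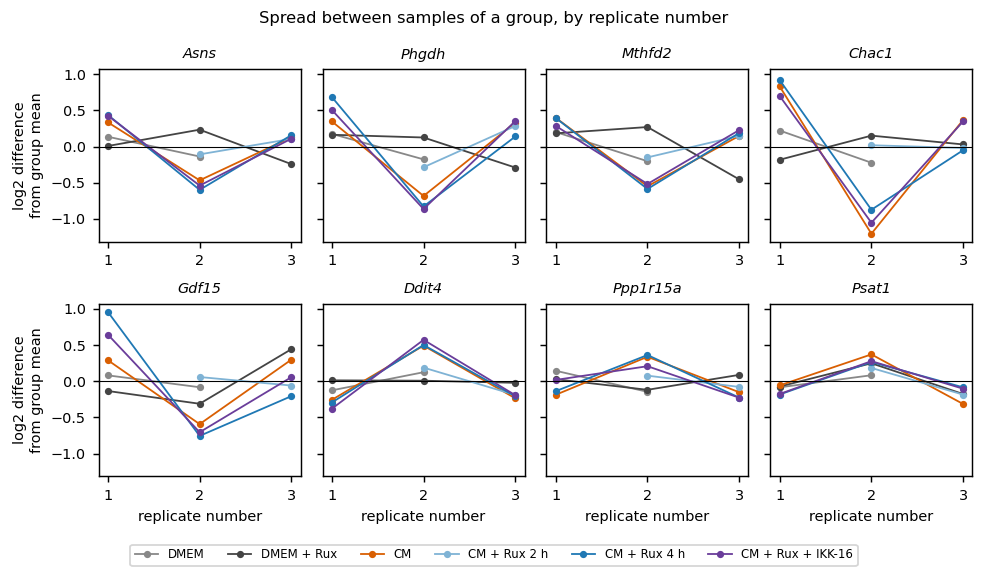
Log2 difference of each sample from its group mean, by replicate number, for 8 members, with 1 line per group. In CM, CM + Rux 4 h and CM + Rux + IKK-16, Asns, Phgdh, Mthfd2, Chac1 and Gdf15 dip at replicate 2 while Ddit4, Ppp1r15a and Psat1 peak there, and the DMEM + Rux samples follow this order for Gdf15 and Psat1 but not for the other 6 members.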

How the data were processed

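RNA of 16 BMDM samples was sequenced from stranded libraries. Per the submitters' processing notes and the study's methods, the authors trimmed reads with Trimmomatic 0.33, aligned them to GRCm38 with HISAT2 2.1.0 and counted fragments per gene with featureCounts 1.6.2 (both ends mapped, reverse strand, mapping quality of at least 10, no multiple alignments or genes), and deposited whole-number counts without scaling or filter. Symbols were matched through a GENCODE M21 gene table of GRCm38 (55141 of 55487 identifiers). Samples were grouped by title. Counts were scaled by RLE, and 1 quasi-likelihood model of 6 groups was fitted with edgeR 4.0.16 and limma 3.58.1 in R 4.3.3, with p-values adjusted over the 12372 genes tested. The script was tested on simulated counts. CPM uses RLE-scaled totals, and CPM per kilobase divides by exon bases. The members and lists were chosen with earlier results of these data known. Values in every sample are given for Atf4, Ddit3, Xbp1, Hspa5 and the members with the 3 largest changes in each direction among those called in a comparison. Slc1a5, Slc6a9, Asns and Phgdh were added after their values were seen. Replicate numbers paired the samples (every same-numbered pair with r above 0.1 over all genes, from 0.16 to 0.72) in CM + Rux 4 h against CM and against DMEM + Rux, for IKK-16, and in the difference of ruxolitinib effects, which is a hint from the data and not from the labels, and the others had 2 such pairs. The alternatives were TMM, total counts, no filter, filterByExpr, the replicate block, DESeq2 1.42.0, only the groups compared, no fold threshold and each sample left out. Motifs and figures used Python 3.11.15, pandas 2.3.3, numpy 2.4.6 and matplotlib 3.10.9.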

Additional observations from a re-analysis of the deposited data

How the results depend on the processing

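Of 65 calls of members over all comparisons, 47 held under every alternative run, and none of the 802 alternative values reversed a direction. With scaling by total counts alone, 5 members were higher and 14 lower in CM against DMEM, 15 lower in CM + Rux 4 h against DMEM + Rux, 20 lower in CM + Rux 2 h against DMEM + Rux and 0 higher in CM + Rux 2 h against CM + Rux 4 h. Without the fold threshold, 2 members were lower in CM + Rux 4 h against CM, 2 higher with IKK-16 and 2 higher at 2 h. In a fit of only the groups compared, 0 members were higher with IKK-16. With the replicate number as a block, 1 member was higher in CM + Rux 4 h against CM, 10 higher and 9 lower in CM against DMEM (Trib3 higher and Slc6a9 and Asns lower besides), 1 higher and 10 lower in CM + Rux 2 h against CM + Rux 4 h, and 10 lower in CM + Rux 4 h against DMEM + Rux; in CM against DMEM, DMEM + Rux against DMEM and both comparisons of 2 h the samples share only 2 numbers. In the comparisons that the numbers paired, the block changed no call but those of Slc6a9 and Asns. With each replicate left out in turn, counts were 8 to 11 higher and 7 to 9 lower in CM against DMEM, 8 to 10 higher and 9 to 10 lower in CM + Rux 4 h against DMEM + Rux, 0 to 1 higher and 1 to 2 lower with IKK-16, 1 to 2 higher and 6 to 10 lower at 2 h against 4 h, and 5 to 6 higher and 10 to 14 lower at 2 h against DMEM + Rux. Where this leaves 1 sample in a group, it is assumed to vary like the other groups. Depth limits Chac1, Slc6a9 and Slc1a4, which have few counts per sample, and leaves Stc2, Vldlr, Pycr1 and Cth without a test.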
